A study of Mus musculus with 18 samples.

Results

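Hepatic RNA levels of 9 genes of glucose use and glucose production were compared between mice descended from frozen germline stem cells and wild-type mice. The genes were chosen by symbol: Gckr, Pklr, Mlxipl, Slc2a2, Gys2, G6pc, Pck1, Fbp1 and Ppargc1a. All 9 were found among the 32285 genes counted, and all 9 passed the filter on low counts in each fit. GS cells, which are spermatogonial stem cells grown in culture, came from testes of newborn DBA/2 mice and were kept frozen for 6 months, either on the International Space Station or on Earth. After thawing they were transplanted into seminiferous tubules of infertile W mice, and these recipients sired offspring with C57BL/6 females, called Space pups and Ground pups after the place of storage. Livers of pups were taken at 10 weeks of age and set beside livers of untreated wild-type BDF1 mice, for which no age is given here, with 6 libraries in each of the 3 groups. The strain of all 3 groups is given as B6D2F1, per the study's methods the GS cells carried an EGFP transgene, and the labels name no litter, recipient father or day of sampling for a library.

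The liver takes glucose up from blood after a meal and releases it during fasting, and these genes stand on both sides of that exchange. Slc2a2 encodes the glucose transporter GLUT2 of the hepatocyte membrane, Gckr a regulatory protein of glucose use in hepatocytes, and Pklr the liver pyruvate kinase that closes glycolysis. Mlxipl encodes ChREBP, a transcription factor that responds to glucose metabolites and binds carbohydrate response elements in promoters such as that of Pklr, and Gys2 encodes the liver glycogen synthase. G6pc, Pck1 and Fbp1 encode enzymes particular to gluconeogenesis (glucose-6-phosphatase, cytosolic phosphoenolpyruvate carboxykinase and fructose-1,6-bisphosphatase), and Ppargc1a encodes PGC-1alpha, a coactivator that rises in fasting liver.

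Promoter sequence is shown for Pklr, which differed between pups and BDF1 mice in each comparison, and for Pck1 and G6pc. Pck1 and G6pc were the members with lower values in replicates 4 to 6 than in replicates 1 to 3 in each group. Gckr and Gys2 had higher values there in each group, and the Gckr window, with none of the motifs given below, is not shown. The windows run from 250 bases before to 50 bases after an annotated start site (RefSeq, GRCm38.p6), 5′ to 3′ on the gene's strand, with motif letters in capitals. A window was at hand for 8 of the 9 members, and none for Gys2. The Pklr window belongs to the downstream of its annotated starts and lies at chr3:89136373-89136672 on the plus strand. The Pck1 window lies at chr2:173152823-173153122 and the G6pc window at chr11:101367466-101367765, both on the plus strand.
Pklr: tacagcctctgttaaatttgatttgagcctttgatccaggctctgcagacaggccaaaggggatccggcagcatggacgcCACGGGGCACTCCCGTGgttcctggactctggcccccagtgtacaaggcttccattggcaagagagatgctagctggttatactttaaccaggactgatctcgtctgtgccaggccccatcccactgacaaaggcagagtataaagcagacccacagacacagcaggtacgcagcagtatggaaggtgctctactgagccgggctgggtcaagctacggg
Pck1: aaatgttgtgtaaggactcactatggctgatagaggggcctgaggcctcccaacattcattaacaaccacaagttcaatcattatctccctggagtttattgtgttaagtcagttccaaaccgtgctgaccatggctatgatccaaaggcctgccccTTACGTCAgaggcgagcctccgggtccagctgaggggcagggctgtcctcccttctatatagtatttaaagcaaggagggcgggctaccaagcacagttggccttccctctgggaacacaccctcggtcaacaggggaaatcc
G6pc: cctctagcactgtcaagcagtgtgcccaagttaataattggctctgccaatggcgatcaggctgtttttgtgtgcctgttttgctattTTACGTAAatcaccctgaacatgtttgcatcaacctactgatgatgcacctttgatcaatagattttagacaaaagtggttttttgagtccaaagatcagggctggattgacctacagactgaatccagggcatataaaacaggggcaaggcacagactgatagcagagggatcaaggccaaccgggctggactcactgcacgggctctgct

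The letters CACGNG and CNCGTG spaced by 5 bases, the form of a carbohydrate response element, were found in the Pklr window as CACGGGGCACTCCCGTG, beginning 170 bases before the start site. This pattern reads the same on both strands, was present in 0.0457% of 32851 promoter windows of the same length, and was in the window of no other member. TTACGTNA, a form of the cAMP response element, was searched on both strands and found as TTACGTCA in the Pck1 window, from 93 bases before the start, and as TTACGTAA in the G6pc window, from 162 bases before the start. It was present in 0.898% of all windows. CACGTG, whose letters can overlap the spaced pattern, was found in 7.15% of all windows and, of the members, in an upstream Mlxipl window. TGTTTAC, a forkhead motif, was found on either strand in 3.65% of all windows and in none of the members' windows. The motifs were picked after these promoters had been read, and a match describes letters only.

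Each library held between 15407450 and 20562351 counts. Replicates 1 to 3 of each group had between 0 and 187 counts of Xist, transcribed from the inactive X chromosome, and between 1822 and 2482 counts over 4 Y-linked genes, whereas replicates 4 to 6 had between 12218 and 21557 counts of Xist and between 0 and 26 over the Y-linked genes. Mice of both sexes were used in the study and the labels give no sex per library. By these counts replicates 1 to 3 are male and replicates 4 to 6 female, so groups were compared within replicates 1 to 3 and within replicates 4 to 6. Levels are given in CPM, counts relative to 1e+06 counts of a library size scaled by TMM (trimmed mean of M values), and changes are log2 ratios from the quasi-likelihood test of edgeR, with a gene called at a Benjamini-Hochberg adjusted p under 0.05. Alb took between 17.6% and 24.1% of counts in pup replicates 4 to 6 and between 4.47% and 8.03% in the other libraries. Scaling by total counts in place of TMM lowered the median change of all genes in replicates 4 to 6 by 0.40 for Space pups and 0.47 for Ground pups on the log2 scale. Hepatocyte markers were abundant (5 of 6 listed were found, at a summed level of at least 57990 CPM in each library), whereas summed levels of pancreatic, adipocyte and skeletal muscle markers stayed at or under 3.55 CPM.

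Compared per kilobase of exon, Pck1 and Fbp1 had the highest levels of the members in each group. In BDF1 mice Pck1 stood at 639 ± 164 CPM per kb (SD, n = 6) and Fbp1 at 552 ± 83.1 (SD, n = 6), a difference smaller than the spread of Pck1. G6pc, at 123 ± 83.1 CPM per kb (SD, n = 6), and Mlxipl, at 70.6 ± 16.8 (SD, n = 6), differed by less than the spread of G6pc. The place of G6pc changed with the set of replicates, from 196 ± 31.6 CPM per kb in BDF1 replicates 1 to 3, next below Fbp1 (SD, n = 3), to a mean in replicates 4 to 6 that was below those of Mlxipl, at 81.7 ± 18.1, Gckr, at 56.7 ± 8.62, and Slc2a2, at 50.7 ± 0.242 (SD, n = 3 each). The SD of G6pc there was 17.4 CPM per kb, more than its distance from Gckr and from Slc2a2. Gckr (48.5 ± 10.9), Gys2 (41.8 ± 9.97), Pklr (40.1 ± 9.60) and Slc2a2 (37.0 ± 15.5 CPM per kb, SD, n = 6 each) were neighbours whose levels differed by less than their spread. Ppargc1a, at 1.50 ± 0.673 CPM per kb (SD, n = 6), was far below the rest. In Space pups Pklr stood at 139 ± 44.5 CPM per kb and in Ground pups at 105 ± 41.6 (SD, n = 6 each). In replicates 1 to 3 Pklr lay below G6pc in both pup groups, whereas in replicates 4 to 6 the levels of Pklr (111 ± 10.9 and 104 ± 31.0 CPM per kb) and G6pc (94.2 ± 61.8 and 108 ± 53.1, SD, n = 3 each, Space and Ground) differed by less than the spread of G6pc. Over the 6 libraries of each group Pck1 varied most in absolute terms, at 657 ± 334 CPM per kb in Space pups and 624 ± 272 in Ground pups (SD, n = 6 each).

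**Figure D1:**
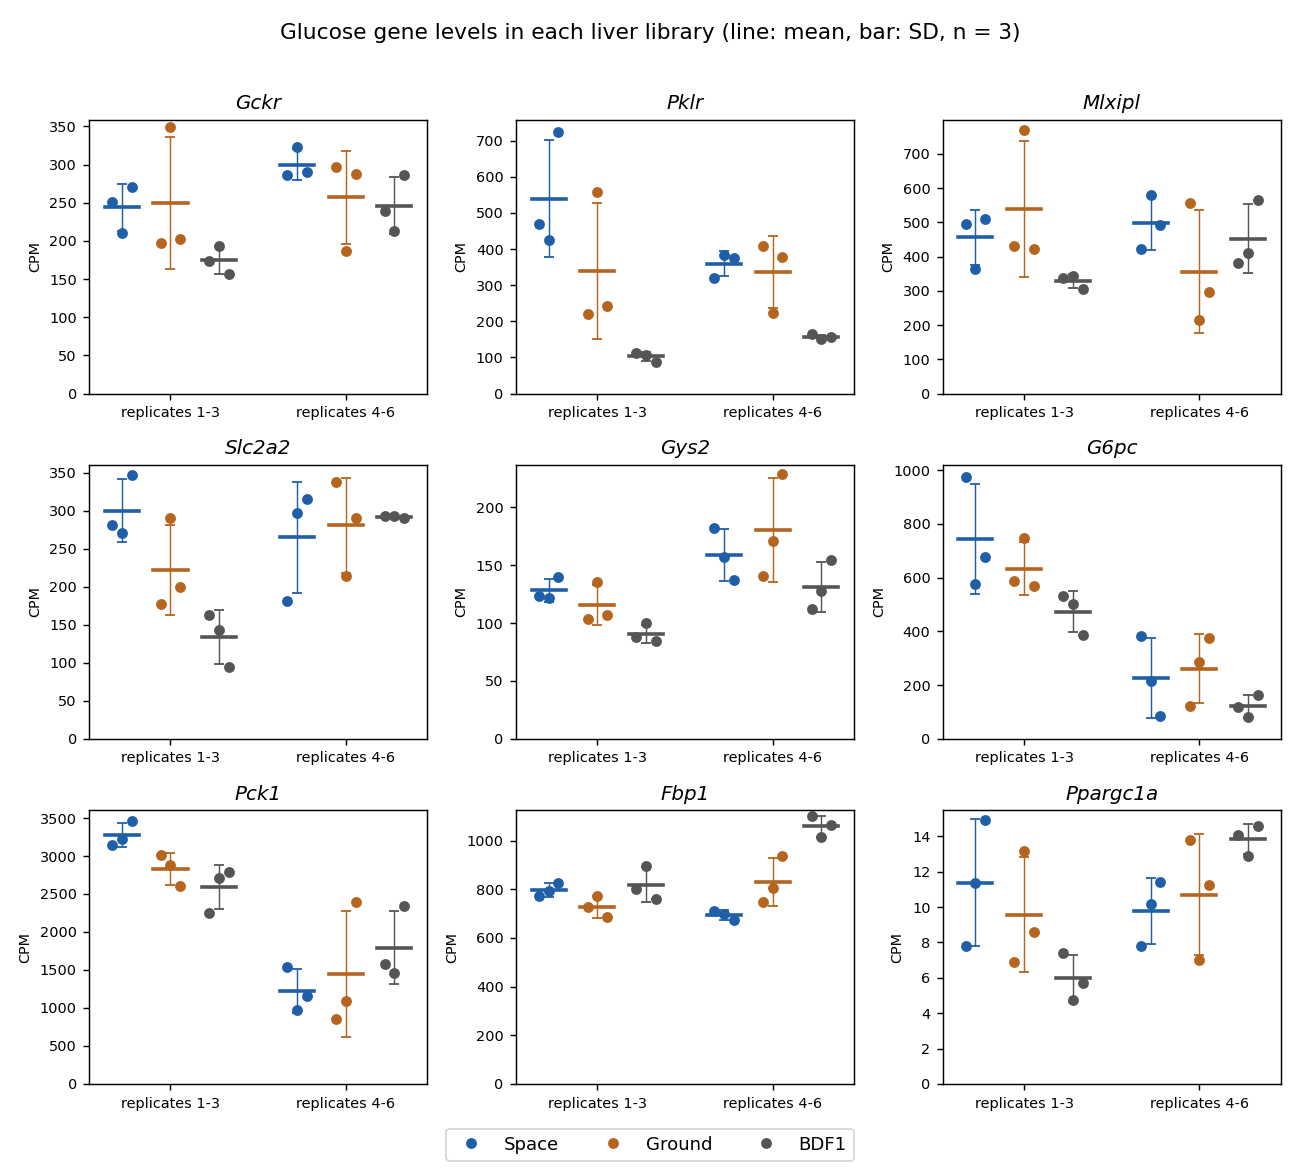
Levels of the 9 genes in CPM (vertical axes from 0, a linear scale of its own for each gene) in every library, split into replicates 1 to 3 and 4 to 6. Points are libraries, lines are means and bars are SD over 3 libraries. Pklr points of pups, at 220.2 CPM or more, lie above all BDF1 points, at 164 CPM or less, while the group means of G6pc and Pck1 are lower at the right than at the left of their panels.

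Pklr was the gene that separated pups from BDF1 mice. Its level in Space replicates 1 to 3 was 468, 426 and 725 CPM, in Ground replicates 1 to 3 it was 220.2, 556 and 243, and in BDF1 replicates 1 to 3 it was 113, 108 and 88.1. All 6 pup libraries therefore lay above the 3 BDF1 libraries. The log2 change was 2.40 ± 0.32 (SE; 5.28-fold, adjusted p = 0.000465, edgeR) in Space pups and 1.73 ± 0.31 (3.31-fold, adjusted p = 0.0103) in Ground pups. The latter lost its call when BDF1 replicate 2 (adjusted p = 0.0614) or BDF1 replicate 3 (adjusted p = 0.0646) was left out.

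The difference was present in the second set of libraries as well. Pklr stood at 319, 384 and 376 CPM in Space replicates 4 to 6, at 409, 223 and 379 in Ground replicates 4 to 6, and at 164, 152 and 156 in BDF1 replicates 4 to 6. Again no pup library reached down to the BDF1 range. Its log2 change was 1.20 ± 0.30 (SE; 2.29-fold, adjusted p = 0.0195, edgeR) in Space pups and 1.10 ± 0.30 (2.14-fold, adjusted p = 0.0228) in Ground pups. Under total-count scaling these values were 0.81 (adjusted p = 0.0602) and 0.65 (adjusted p = 0.110), and the calls were also lost without BDF1 replicate 4 or 5 in both pup groups and, in Ground pups, without BDF1 replicate 6 or Ground replicate 4 or 6 and with the replicate block (adjusted p = 0.0550 to 0.0748 over these fits). Over all 6 replicates Pklr rose by 1.79 ± 0.25 in Space pups (adjusted p = 0.00190) and by 1.38 ± 0.25 in Ground pups (adjusted p = 0.00865), and these calls held under each alternative run, the replicate block included.

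The pooled comparison called no other member. It called 3.8% of 12847 genes for Space pups, 3.81% for Ground pups, and 1 of the 9 members, Pklr, in each. Members at an unadjusted p under 0.05 besides Pklr were Gckr (0.37) and Fbp1 (-0.33) in Space pups and Gys2 (0.41) and Fbp1 (-0.27) in Ground pups, as log2 changes, beside 2668 and 2655 of all genes tested. Fbp1 was called lower in both under total counts and in Space pups with DESeq2 (adjusted p = 0.0287 to 0.0304 over these fits), and Gys2 was called in Ground pups with a term for the set of replicates (adjusted p = 0.0416). The median log2 change of the members was 0.37 in Space pups and 0.24 in Ground pups, beside medians of 0.000461 and 0.0212 over all genes tested. Members were chosen with earlier results of these data known, so their medians are a description only. With the replicate number as a block, 774 genes in place of 488 were called for Space pups and 843 in place of 489 for Ground pups, and the members called remained 1 in each.

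Within replicates 1 to 3 Pklr rose in both pup groups and Slc2a2 in Space pups. The comparison called 4.64% of 13356 genes for Space pups and 1.92% for Ground pups, and called 2 of the 9 members in Space pups (Pklr and Slc2a2, both higher) and 1 (Pklr) in Ground pups. At an unadjusted p under 0.05 there were 5 members in each, beside 2584 of 13356 genes in Space and 2128 in Ground pups, and the median change of the members was 0.50 in Space pups and 0.51 in Ground pups, against -0.0036 and 0.00856 over all genes. Both comparisons share the same 3 BDF1 libraries, and the medians describe members chosen with earlier results of these data known.

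Slc2a2, the glucose transporter, was at 282, 271 and 348 CPM in Space replicates 1 to 3, at 178, 290.0 and 200 in Ground replicates 1 to 3, and at 163, 144 and 95.1 in the BDF1 libraries with these numbers. The groups did not overlap with BDF1 mice. It rose by 1.17 ± 0.24 on the log2 scale in Space pups (SE; 2.25-fold, adjusted p = 0.0121, edgeR), and the value in Ground pups was 0.73 ± 0.24 (adjusted p = 0.137). The call in Space pups was lost under total counts (adjusted p = 0.0569) and without Space replicate 3 (0.0610) or BDF1 replicate 3 (0.0653).

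Ppargc1a, the coactivator, was at 7.78, 11.4 and 15.0 CPM in Space replicates 1 to 3, at 6.90, 13.2 and 8.59 in Ground replicates 1 to 3 and at 7.43, 4.77 and 5.69 in BDF1 replicates 1 to 3. The Space libraries lay above the BDF1 libraries by a narrow margin, and the Ground libraries overlapped with them. The log2 changes of 0.94 ± 0.28 (SE, adjusted p = 0.0729) and 0.67 ± 0.28 (adjusted p = 0.256) did not pass the threshold. DESeq2 (adjusted p = 0.0279) and limma voom (adjusted p = 0.00823) called the former, as did edgeR without a filter on low counts (0.0471), without Ground replicate 2 (0.0430) or without Ground replicate 5 (0.0484). Gys2, the glycogen synthase, stood at 123, 121 and 140.0 CPM in Space replicates 1 to 3, 104, 136 and 107 in Ground and 88.2, 99.6 and 84.7 in BDF1 libraries, with changes of 0.50 ± 0.17 (adjusted p = 0.114) and 0.34 ± 0.17 (adjusted p = 0.347). The former was called by limma voom (adjusted p = 0.00761) and with each set of replicates fitted alone (adjusted p = 0.0288).

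Gckr and Mlxipl, which encodes ChREBP, had log2 changes of 0.49 ± 0.21 and 0.47 ± 0.30 in Space replicates 1 to 3 and of 0.51 ± 0.21 and 0.71 ± 0.30 in Ground replicates 1 to 3, with adjusted p between 0.213 and 0.406. Limma voom called Gckr in Space pups (adjusted p = 0.0272). Ground replicate 2 was the highest of the 18 libraries for both, at 349 CPM of Gckr and 769 CPM of Mlxipl, and the highest of its group for Pklr. G6pc (0.66 ± 0.44 and 0.42 ± 0.43), Pck1 (0.35 ± 0.30 and 0.13 ± 0.30) and Fbp1 (-0.03 ± 0.11 and -0.17 ± 0.11), the enzymes of gluconeogenesis, passed no test in replicates 1 to 3.

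**Figure D2:**
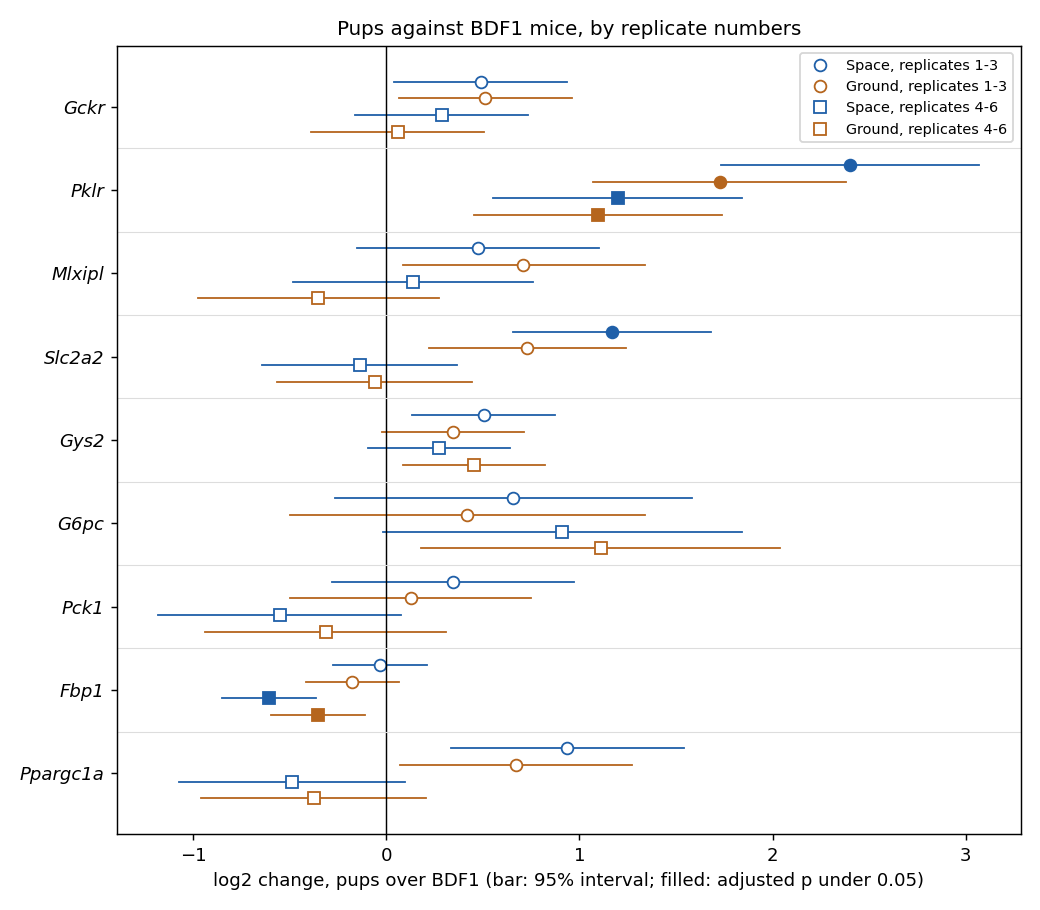
Log2 change of each gene in pups over BDF1 mice (horizontal axis), with 95% intervals, for Space (blue) and Ground (brown) pups in replicates 1 to 3 (circles) and 4 to 6 (squares). Filled symbols passed an adjusted p under 0.05. Pklr is filled in all 4 comparisons, from 2.40 down to 1.10, Slc2a2 only for Space replicates 1 to 3, and Fbp1 only in replicates 4 to 6.

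In replicates 4 to 6 the pups differed from BDF1 mice at many more genes, 11.9% of 13356 for Space pups and 15.2% for Ground pups, and 2 of the 9 members were called in each, Pklr higher and Fbp1 lower. Among 9 genes these backgrounds already amount to more than 1 gene, so the count of 2 is no result about the members as a set. Their median change was 0.14 in Space pups and -0.06 in Ground pups. Fbp1, whose enzyme removes a phosphate from fructose-1,6-bisphosphate, was at 711, 698 and 674 CPM in Space replicates 4 to 6, at 748, 805 and 937 in Ground replicates 4 to 6 and at 1101, 1013 and 1063 in BDF1 replicates 4 to 6. All 6 pup libraries were below the BDF1 range.

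Fbp1 fell by 0.61 ± 0.11 on the log2 scale in Space pups (SE; 1.52-fold lower, adjusted p = 0.00387, edgeR), a call that held in every alternative run. In Ground pups it fell by 0.35 ± 0.11 (1.28-fold lower, adjusted p = 0.0465). That call was lost in 15 of 18 fits with a library left out (all but those without Space replicate 4, Ground replicate 2 or Ground replicate 6) and also with the replicate block (adjusted p = 0.0906), limma voom (0.0892), no filter on low counts (0.106) and each set fitted alone (0.142). In these comparisons the summed hepatocyte markers, Alb among them, were also higher in pups, at 223700 to 281300 CPM in Space and 216500 to 378000 in Ground against 71030 to 92650 CPM in BDF1 libraries, with 2 and 3 of 5 markers called higher and none lower, and their part in the Fbp1 values was not tested. The BDF1 libraries themselves were higher in replicates 4 to 6 than in 1 to 3, as given below.

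G6pc pointed the other way in replicates 4 to 6 without passing the test. It stood at 382, 216 and 83.8 CPM in Space, 122, 287 and 374 in Ground and 119, 79.4 and 163 in BDF1 replicates 4 to 6. Values spread widely within the pup groups and overlapped with BDF1 mice, and the log2 changes were 0.91 ± 0.44 (SE, adjusted p = 0.179) and 1.11 ± 0.44 (adjusted p = 0.0984). Without Space replicate 6, the lowest pup library, the values were 1.31 (adjusted p = 0.0386) in Space and 1.11 (adjusted p = 0.0451) in Ground pups, and without Ground replicate 4 it was 1.46 (adjusted p = 0.0260) in Ground pups. Gys2 had changes of 0.27 ± 0.17 and 0.45 ± 0.17 (adjusted p = 0.313 and 0.0868), the latter called without Ground replicate 4 (0.61, adjusted p = 0.0222). Limma voom called both G6pc (1.40, adjusted p = 0.0323) and Gys2 (0.58, adjusted p = 0.0227) in Ground pups.

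The remaining members were near or below the BDF1 level. Slc2a2, which had risen in Space replicates 1 to 3, was at 182, 297 and 316 CPM in Space, 338, 214 and 290.1 in Ground and 293, 293 and 290.3 in BDF1 replicates 4 to 6, a full overlap, with changes of -0.14 ± 0.24 and -0.06 ± 0.24. Pck1 changed by -0.55 ± 0.30 and -0.31 ± 0.30, Ppargc1a by -0.49 ± 0.28 and -0.38 ± 0.28, Mlxipl by 0.14 ± 0.29 and -0.35 ± 0.29, and Gckr by 0.29 ± 0.21 and 0.06 ± 0.21. None of these passed the threshold, their adjusted p lying between 0.230 and 0.897 in edgeR. In Ground pups Pck1 was called without Ground replicate 6 (-0.89, adjusted p = 0.0233) and Mlxipl without Ground replicate 4 (-0.82, adjusted p = 0.0430).

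These values depended on the scaling. Under total counts Pck1 (-0.96 and -0.85) and Ppargc1a (-0.87 and -0.82) were called lower in Space and Ground replicates 4 to 6, and Gckr (-0.10 and -0.39), Gys2 (-0.13 and -0.048) and Mlxipl in Space pups (-0.24) changed sign, without a call. Subtracting the shifted median of all genes gave 1.20 and 1.11 for Pklr and -0.62 and -0.38 for Fbp1. This takes the shift out again, so values near those of TMM were fixed in advance and are no test of the scaling. Over all genes, 54.0% and 51.7% of calls in replicates 4 to 6 were higher in Space and Ground pups with TMM, and 6.77% and 6.55% with total counts. In replicates 1 to 3 the share higher in Space pups was 61.3% with TMM and 39.8% with total counts, and over all libraries it moved from 61.7% to 9.23% in Space and from 46.2% to 6.89% in Ground pups.

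**Figure D3:**
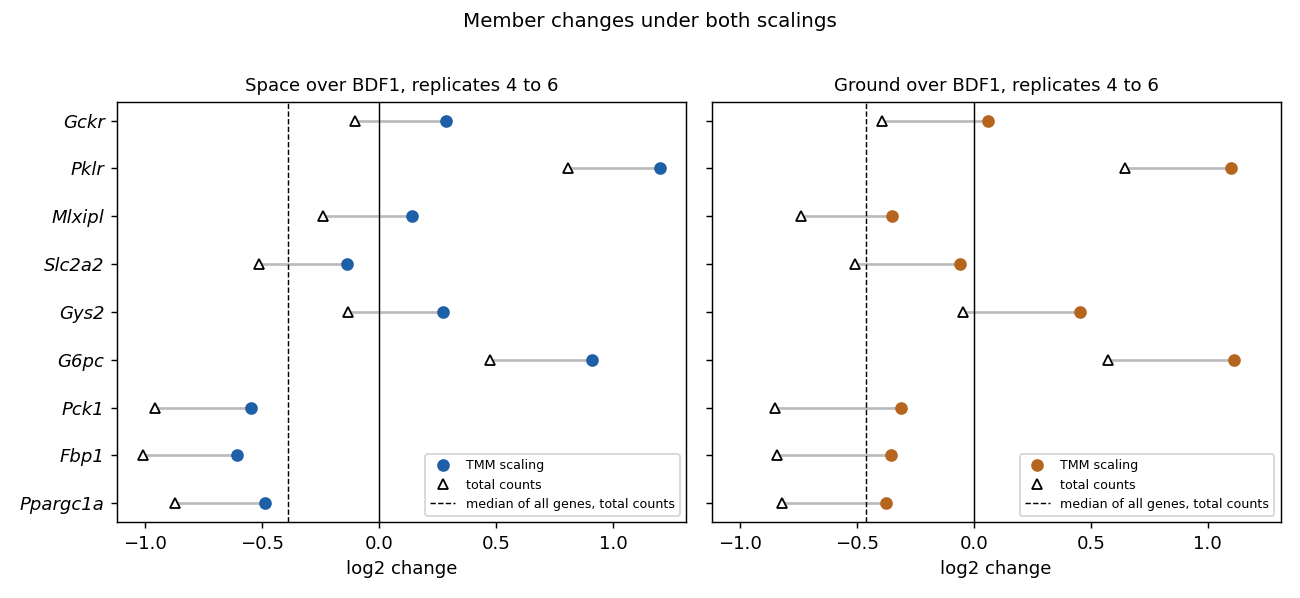
Log2 change of each gene over BDF1 mice in replicates 4 to 6 (horizontal axis) under TMM scaling (filled circles) and total counts (open triangles), in Space pups (left) and Ground pups (right). The dashed line is the median of all genes under total counts, at -0.39 and -0.46. All 9 genes move left by about this shift. Pklr, with 0.81 and 0.65, and G6pc, with 0.47 and 0.57, stay on the positive side, without a call under total counts.

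Whether the difference from BDF1 mice itself differed between the sets of replicates was tested with an interaction term. For Space pups 3.19% of genes were called and 1 of the 9 members, Slc2a2, whose change was lower by 1.31 ± 0.34 in replicates 4 to 6 than in 1 to 3 (adjusted p = 0.0466). The BDF1 libraries went from between 95.1 and 163 CPM to between 290.3 and 293 CPM, while the Space ranges overlapped. The call did not hold with the replicate block (adjusted p = 0.102) or in 12 of 18 fits with a library left out, all but those without Space replicate 6, Ground replicate 1, 2, 4 or 5, or BDF1 replicate 1. Ppargc1a (-1.43 ± 0.40, adjusted p = 0.0591), Fbp1 (-0.57 ± 0.16, adjusted p = 0.0614), Pklr (-1.20 ± 0.43, adjusted p = 0.134) and Pck1 (-0.90 ± 0.42, adjusted p = 0.257) had values of the same sign and passed at an unadjusted p only in this fit, where 2541 genes, the called ones included, had an unadjusted p under 0.05. Fbp1 was called by DESeq2 (adjusted p = 0.000529), limma voom (0.0111) and under total counts (0.00898), Ppargc1a by DESeq2 (0.0172), limma voom (0.0152), without a filter (0.0277) and under total counts (0.0460), and Pklr by limma voom (0.0279). Ppargc1a was also called without Space replicate 1 or Ground replicate 2, 4 or 5, Fbp1 without Ground replicate 4 or 6, and Pklr without Ground replicate 2 (adjusted p = 0.0359 to 0.0491 over these fits). For Ground pups 2.74% of genes and 0 members were called, with 2317 genes and 3 members at an unadjusted p under 0.05 (Mlxipl, Slc2a2 and Ppargc1a, -1.06, -0.79 and -1.05), and DESeq2 called 0 members. Mlxipl was called without Ground replicate 4 (-1.53, adjusted p = 0.0197), and Fbp1, at -0.18 ± 0.16, was called under total counts (-0.60, adjusted p = 0.0287).

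Storage in space was compared with storage on Earth between the pup groups. Storage was applied to the GS cells, and the study reports fewer fertile recipients for each place of storage than pups sampled. Pups of a group can thus share a father, while these tests and those above treat each pup as an independent replicate. No member was called: over all libraries 0% of genes passed, with 1186 genes and 0 members at an unadjusted p under 0.05, within replicates 1 to 3 0.00749%, within replicates 4 to 6 0.0225%, and 0% for the interaction. At an unadjusted p under 0.05 there was 1 member in each of these last 3 tests, beside 1292, 1852 and 1038 genes, namely Pklr in replicates 1 to 3 and Fbp1 in replicates 4 to 6 and for the interaction. DESeq2 also called 0 members in these 4 tests. Member changes, Space over Ground, ranged from -0.06 to 0.41 over all libraries, from -0.24 to 0.67 in replicates 1 to 3 and from -0.25 to 0.49 in replicates 4 to 6. Pklr was the highest of these in replicates 1 to 3, at 0.67 with a 95% interval from 0.0385 to 1.31 (adjusted p = 0.498, edgeR). Ground replicate 2, at 556 CPM, lay among the Space libraries, and without it the difference was 1.24 (adjusted p = 0.0320), while limma voom with quality weights gave 1.03 (adjusted p = 0.0224). In replicates 4 to 6 the Pklr difference was 0.10, with a 95% interval from -0.53 to 0.73, and over all libraries it was 0.41, from -0.11 to 0.93. Fbp1, at 674 to 711 CPM in Space and 748 to 937 CPM in Ground replicates 4 to 6, did not overlap, with a difference of -0.25 (95% interval from -0.50 to -0.012, adjusted p = 0.339, edgeR) and an interaction of -0.40 (adjusted p = 0.605).

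A further contrast set replicates 4 to 6 against replicates 1 to 3 in each group, the sets that Xist and Y-linked counts separate. Sex, and whatever else went with the numbering, cannot be told apart in it. In Space pups 21.9% of genes were called and 2 of the 9 members, in Ground pups 18.3% and 2 members, and in BDF1 mice 14.6% and 5 members. The counts in pups are near the background share, and the count in BDF1 mice is above it. Members were chosen with earlier results of these data known, so the latter count is a description only. Its calls of Fbp1 and Gys2 did not hold throughout, as given below. G6pc was called lower in replicates 4 to 6 in Space pups and BDF1 mice, and Pck1 in Space and Ground pups, with negative values in the remaining group for each.

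G6pc, the last enzyme of glucose release, was at 973, 578 and 677 CPM in Space, 587, 746 and 567 in Ground and 531, 500.3 and 387 in BDF1 replicates 1 to 3, so that in each group all of replicates 1 to 3 exceeded all of replicates 4 to 6. It fell by 1.72 ± 0.45 on the log2 scale in Space pups (SE; 3.29-fold lower, adjusted p = 0.0116, edgeR) and by 1.97 ± 0.45 in BDF1 mice (3.92-fold lower, adjusted p = 0.00773), and the value in Ground pups was -1.28 ± 0.44 (adjusted p = 0.0546). The call in Space pups was lost without Space replicate 1 (adjusted p = 0.0529), and in Ground pups it was gained without Space replicate 4 or 6 or Ground replicate 6 (adjusted p = 0.0199 to 0.0393), with DESeq2 (0.0320), without a filter (0.0239) and under total counts (-1.78, adjusted p = 0.00177).

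Pck1, which makes phosphoenolpyruvate from oxaloacetate, stood at 3148, 3228 and 3459 CPM in Space replicates 1 to 3 and at 1545, 977 and 1153 in replicates 4 to 6. In Ground pups it went from 3013, 2879 and 2603 to 848, 1089 and 2396 CPM, and in BDF1 mice from 2256, 2716 and 2794 to 1574, 1458 and 2344, where the sets overlapped. It fell by 1.43 ± 0.30 in Space pups (2.69-fold lower, adjusted p = 0.00314, edgeR) and by 0.97 ± 0.30 in Ground pups (1.96-fold lower, adjusted p = 0.0323), and the value in BDF1 mice was -0.53 ± 0.30 (adjusted p = 0.256; called by limma voom, 0.0276). The call in Ground pups was lost when any of Ground replicates 1, 2, 4 or 5 was left out.

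BDF1 mice had 4 members that were higher in replicates 4 to 6. Slc2a2 rose by 1.12 ± 0.24 (2.18-fold, adjusted p = 0.00511, edgeR). Ppargc1a, at 14.1, 12.9 and 14.6 CPM in replicates 4 to 6 with no overlap with replicates 1 to 3, rose by 1.21 ± 0.28 (2.32-fold, adjusted p = 0.00859). Fbp1 rose by 0.37 ± 0.11 (adjusted p = 0.0386) and Gys2 by 0.53 ± 0.17 (adjusted p = 0.0492), calls that were lost in 8 and 12 of 18 fits with a library left out. For Fbp1 these were the fits without Space replicates 1 to 3 or any BDF1 library but replicate 2, and for Gys2 all but those without Space replicate 4 or 6, Ground replicate 2, 4 or 6, or BDF1 replicate 4. The Fbp1 call was also lost under total counts (adjusted p = 0.0633) and without a filter on low counts (0.112). The same contrast gave -0.18 ± 0.24 for Slc2a2 and -0.21 ± 0.28 for Ppargc1a in Space pups and 0.33 ± 0.24 and 0.16 ± 0.28 in Ground pups, none called, and the values in Ground pups turned negative under total counts (-0.065 and -0.23). Fbp1 gave -0.20 ± 0.11 in Space and 0.19 ± 0.11 in Ground pups and Mlxipl -0.60 ± 0.30 in Ground pups, none called. Under total counts Fbp1 was called lower in Space pups (-0.50, adjusted p = 0.00394) and its value in Ground pups turned negative (-0.25), and Mlxipl was called lower in Ground pups (-0.95, adjusted p = 0.0337; also without Ground replicate 4, 0.0101). Gys2 rose in Ground pups, from between 104 and 136 to between 141 and 229 CPM, by 0.64 ± 0.17 (1.56-fold, adjusted p = 0.0160), a call lost under total counts (0.18) and without Ground replicate 1, 3 or 6. Pklr gave -0.59 ± 0.30 in Space pups, -0.02 ± 0.30 in Ground pups and 0.61 ± 0.30 in BDF1 mice, none called, although total counts gave a call in Space pups (-0.88, adjusted p = 0.0470) and limma voom in BDF1 mice (0.64, adjusted p = 0.0249). Gckr gave 0.49 ± 0.21 in BDF1 mice (adjusted p = 0.132; called by limma voom, 0.0403).

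**Figure D4:**
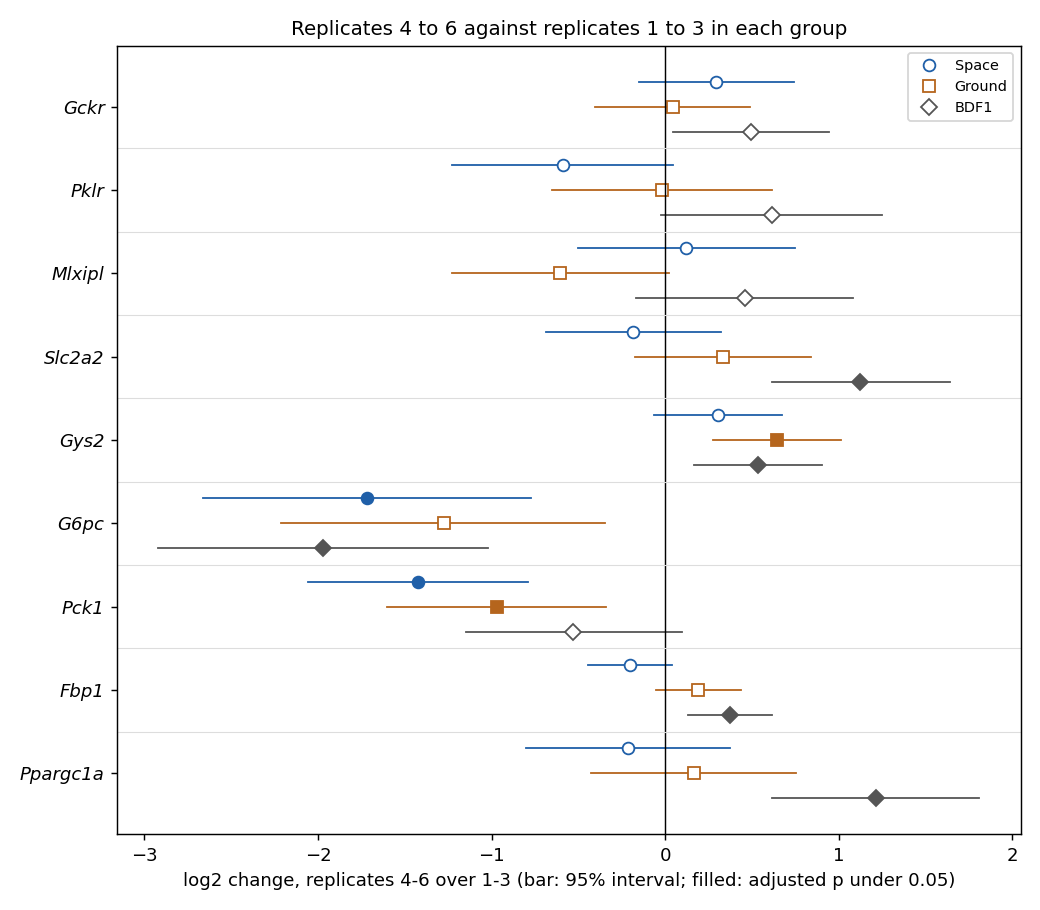
Log2 change of each gene in replicates 4 to 6 over replicates 1 to 3 (horizontal axis) within Space pups (circles), Ground pups (squares) and BDF1 mice (diamonds), with 95% intervals. Filled symbols passed an adjusted p under 0.05. G6pc and Pck1 lie left of 0 in all 3 groups, from -1.97 to -0.53, while Slc2a2, Ppargc1a and Fbp1 are filled on the right only in BDF1 mice.

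Genes that vary with other processes moved beside these members. The share called over all genes tested was 4.64% in Space and 1.92% in Ground replicates 1 to 3. It was 11.9% and 15.2% in replicates 4 to 6, so that 1 call among 8 genes there is near the background. Of 8 genes of fatty acid synthesis, which glucose also induces in liver, 7 rose in Space replicates 1 to 3 and 1 in each of the other pup comparisons. Their summed level was between 939.5 and 1214 CPM in BDF1 replicates 1 to 3, between 10810 and 17440 in Space replicates 1 to 3, and 3770, 12950 and 3627 in Ground replicates 1, 2 and 3, where replicate 2 was also the highest for Pklr. In replicates 4 to 6 it was 3457, 6637 and 9326 CPM in Space, 14100, 1702 and 2245 in Ground and 2582, 3619 and 3911 in BDF1 libraries, so that these groups overlapped where those of Pklr did not. Of 12 clock genes 7 rose in Space and 3 in Ground replicates 1 to 3, with summed levels of 320 to 358 and 276 to 314 CPM against 189 to 235 CPM in BDF1 mice. In replicates 4 to 6 the clock sums were 551 to 592, 501 to 611 and 598 to 815 CPM in Space, Ground and BDF1 libraries, all above the libraries of replicates 1 to 3. Of 5 blood cell genes 4 rose in both pup groups in replicates 4 to 6, where sums were 200.3 to 722 and 102 to 584 CPM against 32.3 to 87.7 CPM, with none at 0. The summed periportal hepatocyte markers, which share their zone with gluconeogenesis, were 6469 to 10610, 4637 to 9423 and 11960 to 14220 CPM in Space, Ground and BDF1 replicates 4 to 6, and 4 of 6 fell in Ground pups there. In replicates 1 to 3 the periportal sums were 10650 to 11130 in Space, 9436 to 10040 in Ground and 7364 to 9974 CPM in BDF1 libraries. Of 6 pericentral markers 2 fell in Space and 3 in Ground replicates 4 to 6 and 1 rose in Space replicates 1 to 3. BDF1 pericentral sums were 5701 to 6967 CPM in replicates 1 to 3 and 8630 to 11220 in replicates 4 to 6. Between these sets BDF1 periportal sums rose as well, and BDF1 blood sums, at 182.1 to 298.5 CPM in replicates 1 to 3, fell. Of 5 markers each for cholangiocytes, Kupffer cells, endothelial cells and stellate cells, at most 1 was called in any of the 4 pup comparisons, and kidney tubule markers summed to at most 1.51 CPM. The part of feeding, time of day, blood content and liver zone in the members' values was not tested, and in bulk liver RNA fewer cells of a type and less RNA per cell cannot be told apart.

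Other genes of the pathway, in lists without the 9 members, were called in both directions. Over all genes tested, 4.64% were called in Space and 1.92% in Ground replicates 1 to 3. In replicates 4 to 6 these shares were 11.9% and 15.2%. The counts there for glycolysis, glycogen turnover, and insulin and glucagon signalling were near or under these shares and are no result about those lists. Of 25 glycolysis genes, 3 rose in Space and 2 in Ground replicates 1 to 3, and in replicates 4 to 6, 3 rose in Space pups while 1 rose and 2 fell in Ground pups. Pfkfb3, which makes the activator of phosphofructokinase, rose by 2.75 ± 0.28 and 1.90 ± 0.28 in replicates 1 to 3, and its values in replicates 4 to 6 were -0.40 and -0.58. Pfkfb1, the liver form, rose in Space pups by 0.85 ± 0.18 in both sets.

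Of 17 tested genes of a gluconeogenesis list of 18, 2 rose in Space replicates 1 to 3 (Slc37a4, the glucose-6-phosphate transporter, by 0.99, and Mdh1 by 0.44), none was called in Ground replicates 1 to 3 or Space replicates 4 to 6, and 5 fell in Ground replicates 4 to 6. The 5 were Sds (-1.33), Gpt (-1.04), Got1 (-0.998), Slc25a10 (-0.58) and Slc25a11 (-0.46), enzymes of amino acid use and mitochondrial carriers, and the genes of this list were named after their values were seen. Of 19 tested genes of glycogen turnover, Phka2, a subunit of phosphorylase kinase, fell in replicates 4 to 6 of both pup groups (-0.65 and -0.64), and Gaa, which degrades glycogen in lysosomes, fell in replicates 1 to 3 of both (-0.38 and -0.40). In all, 1 rose and 1 fell in Space replicates 1 to 3, 1 fell in Ground replicates 1 to 3, and 2 fell in each pup group in replicates 4 to 6.

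Of 13 tested genes of hexose transport, fructose use and the pentose phosphate path, 4 rose and 1 fell in Space replicates 1 to 3, none was called in Ground replicates 1 to 3, and 2 rose and 2 fell in replicates 4 to 6 of each pup group. G6pdx, the entry enzyme of the pentose phosphate path, rose in replicates 4 to 6 by 1.46 ± 0.32 and 1.22 ± 0.32, and Tkfc, of fructose use, by 1.05 ± 0.21 and 0.98 ± 0.21 there and by 0.78 ± 0.21 in Space replicates 1 to 3. Slc2a1, the transporter GLUT1, fell by 0.88 ± 0.22 in Space replicates 1 to 3 and by 0.75 ± 0.22 and 0.72 ± 0.22 in Space and Ground replicates 4 to 6. The 23 regulators had 4 rises in each pup group in replicates 1 to 3, 1 rise and 3 falls in Space and 2 rises and 3 falls in Ground replicates 4 to 6. Txnip, a known ChREBP target, rose in replicates 4 to 6 by 1.69 ± 0.26 and 1.50 ± 0.26 and gave 0.24 and -0.06 in replicates 1 to 3. Srebf1, which drives lipid synthesis under insulin, fell in replicates 4 to 6 by 1.37 ± 0.26 and 1.87 ± 0.27, and Cebpb, an activator of the Pck1 promoter, rose in replicates 1 to 3 by 1.42 ± 0.29 and 1.39 ± 0.29. Among 20 genes of insulin and glucagon signalling, 4 rose and 2 fell in Space and 1 rose in Ground replicates 1 to 3, and 2 fell in each pup group in replicates 4 to 6. Akt1 fell in Space replicates 1 to 3 (-0.46) and in both pup groups in replicates 4 to 6 (-0.63 and -0.54), and Trib1 rose in replicates 1 to 3 (0.82 and 0.84). List medians lay between -0.27 and 0.30 in these 4 comparisons.

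**Figure D5:**
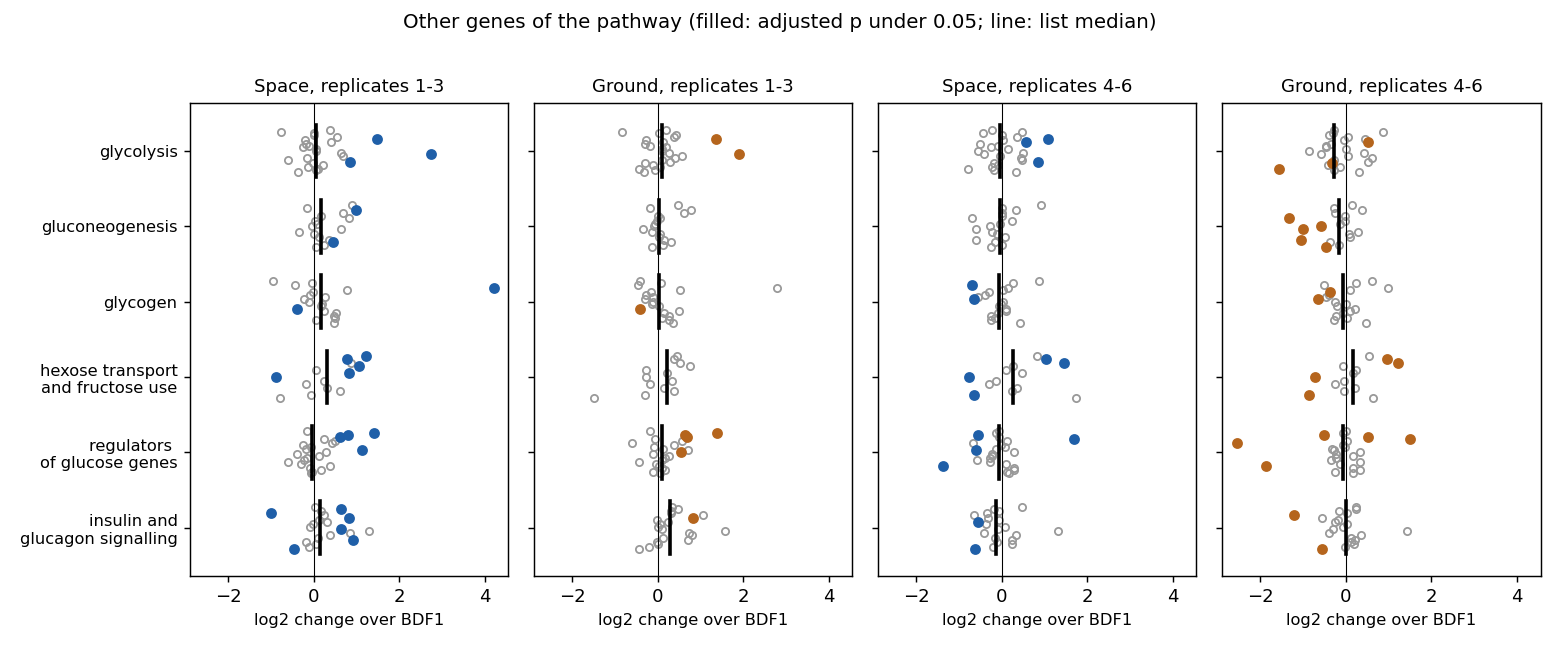
Log2 change over BDF1 mice (horizontal axis) of the genes of 6 pathway lists (rows) in the 4 comparisons (panels), where each point is a gene, filled points passed an adjusted p under 0.05 and black lines are list medians. Calls lie on both sides of 0, and list medians stay within 0.30 of it.

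Members were also compared with each other over the 18 libraries, by Pearson's r of log2 CPM centred within replicates 1 to 3 and within 4 to 6, as a description, since they share libraries, groups and depth. The closest pairs were Slc2a2 with Ppargc1a (0.839), Gckr with Mlxipl (0.835), Gys2 with G6pc (0.801), Gckr with Pklr (0.788) and Pklr with Slc2a2 (0.779). Pck1 gave 0.603 with Fbp1 and 0.024 with Pklr, and Fbp1 gave -0.39 with Pklr. Of all genes tested, those most like a member were Aqp8 for Pklr (0.946), Timd2 for Gys2 (0.921), Ank for Slc2a2 (0.914), Eno1 for Ppargc1a (0.912), Otc for Mlxipl (0.91), Gapdh for Gckr (0.908), Rdh7 for G6pc (0.908), Gtpbp8 for Fbp1 (0.873) and Tmem219 for Pck1 (0.794). Eno1 has the near-identical copy Eno1b, which followed it in the order for Ppargc1a (0.875), and reads may have been split between them.

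In mm10 (GENCODE M21) all 9 are protein-coding genes. Gckr spans chr5:31297443-31327314, Pklr chr3:89136142-89146784, Mlxipl chr5:135089890-135138382, Slc2a2 chr3:28697903-28731359, G6pc chr11:101367561-101377903 and Pck1 chr2:173153048-173159273, on the plus strand. Gys2 at chr6:142422613-142473109, Fbp1 at chr13:62864753-62888282 and Ppargc1a at chr5:51454250-51567726 lie on the minus strand. Counts cover whole genes, so use of one start or exon over another was not measured.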

How the data were processed

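Liver RNA of 18 mice was measured by RNA-seq. The labels describe stranded libraries read in paired-end mode, while the study's methods describe single reads, another kit and another cutadapt version, so which applies is uncertain. The authors deposited raw read counts per gene, whole numbers without normalization. Per the labels and methods, reads were trimmed with cutadapt and aligned with HISAT2 to mm10 with GENCODE M21. The submitters' processing notes name bcl2fastq 2.20, cutadapt 4.6, HISAT2 2.2.1 and HTSeq 2.0.2. The strand setting and the handling of reads that match several genes are not given in the sources used here.

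Group and number of each library are those of its label. After filterByExpr and TMM scaling, counts were fitted in edgeR 4.0.16 (R 4.3.3) by quasi-likelihood, once by group and once by group and set of replicates (1 to 3, 4 to 6), which also gave the interaction. Each standard error was taken as the size of the log2 change divided by the root of its F statistic, and intervals are at 95%. The log2 CPM values used a prior count of 2. Alternatives were total counts, DESeq2 size factors, library sizes without the 10 most abundant genes, DESeq2 1.42.0, limma 3.58.1 voom with quality weights, other filters, the replicate number or set as a term, sets fitted alone, and leaving out each library. The fits were also run on simulated counts with changes put in, as a check of the code whose outcome is not given here.

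The members and lists were chosen with earlier results of these data known. All 9 members are named. In the pathway lists, up to 3 genes were named that were called the same way in at least 2 of the 4 comparisons of pups with BDF1 mice within sets, and for each member the nearest genes by r. The gluconeogenesis list had no such gene, and its called genes were named after their values were seen. A gene that this rule names is not reported here. Cell type markers are summarised by counts and sums.

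Deviations from group means of same-numbered libraries correlated at 0.231 to 0.654 over 18 pairs, while other numbers of the same set were as close (median 0.529 against 0.487). Within a group and set, counts of any pair of libraries differed by a chi-square of at least 10.5 a gene, so none was treated as a duplicate. Space replicate 4 stood apart from replicates 5 and 6 (143 and 154, against 18.7 between those). Ground replicate 4 did so too (198 and 165, against 49.6), and Ground replicate 2 from replicates 1 and 3 (81 and 72.5, against 30.7). A gene without a count could still reach between 0.134 and 0.236 CPM, from an upper limit of 3 counts, which covers counting error only.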

Additional observations from a re-analysis of the deposited data

Results flagged for a closer look

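In 27 sets of 6 libraries, each a member in a group, 1 had a library far from the rest by Dixon's ratio. The Pklr level of Space replicate 3, at 725 CPM, stood apart from the next highest Space library, at 468 CPM, by 0.632 of the range of the 6 libraries, past the 95% critical value. Chance alone would give about 1 in 20 such sets.

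The difference of Slc2a2 between Space pups and BDF1 mice changed between replicates 1 to 3 and 4 to 6 by -1.31 on the log2 scale (adjusted p = 0.0466, interaction term of edgeR). The call was lost with the replicate block (adjusted p = 0.102) and in 12 of 18 fits with a library left out.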

How the results depend on the processing

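Of the members called, some counts moved with the setting. Under total counts they were 2 in Space and 2 in Ground pups over all libraries (1 each with TMM), 1 in Space replicates 1 to 3 (2), 3 and 1 for the interactions of Space and Ground pups (1 and 0), and 4 between the sets of replicates in Space pups (2). With limma voom they were 5 in Space replicates 1 to 3, 1 for Space against Ground replicates 1 to 3 (0), 4 for the Space interaction and 8 between the sets in BDF1 mice (5). DESeq2 gave 2 over all libraries and 3 for the interaction in Space pups, and without a filter on low counts that interaction gave 2 and Ground replicates 4 to 6 gave 1 (2). A term for the set of replicates gave 2 in Ground pups over all libraries, and fitting each set alone gave 1 in Ground replicates 4 to 6. DESeq2 size factors in edgeR, library sizes without the 10 most abundant genes and a mean of at least 1 CPM left these counts within 1.5 times. The cause was not tested, beyond the shift of the median described for total counts.

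Leaving out each library gave between 1 and 3 members called in Space and 0 and 1 in Ground replicates 1 to 3, 1 and 3 in Space and 0 and 3 in Ground replicates 4 to 6, 0 and 1 for Space against Ground replicates 1 to 3, 0 and 3 and 0 and 1 for the interactions of Space and Ground pups, and 1 and 2, 0 and 3, and 3 and 5 between the sets in Space, Ground and BDF1 libraries. Of 78 member changes followed through the alternatives, those described one by one, uncalled ones that crossed 0 were, under total counts in replicates 4 to 6, Gckr (-0.10 in Space, -0.39 in Ground), Gys2 (-0.13 and -0.048) and Mlxipl (-0.24 in Space), between the sets in Ground pups under total counts Slc2a2 (-0.065), Ppargc1a (-0.23) and Fbp1 (-0.25) and with limma voom Pklr (0.39), and, with a library left out, Fbp1 in Space replicates 1 to 3 (-0.082 to 0.040), Slc2a2 in Space (-0.29 to 0.077) and Ground (-0.21 to 0.10) and Gckr in Ground replicates 4 to 6 (-0.049 to 0.24), Pklr for Space against Ground replicates 4 to 6 (-0.12 to 0.26), and between the sets Slc2a2 (-0.33 to 0.030) and Ppargc1a (-0.43 to 0.037) in Space and Pklr (-0.25 to 0.55) and Ppargc1a (-0.062 to 0.47) in Ground pups. For these changes the alternatives gave 2052 values, of which 1896 kept direction and side of the threshold, 78 lost a call, 56 gained one and 22 changed sign.

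Within the sets, same-numbered libraries did not deviate together (correlations from -0.601 to 0.251, 3 of 18 pairs over 0.1), so the numbers pair nothing there. The replicate block gave 0 members called in Ground replicates 4 to 6 and 0 for the Space interaction, and changed no other count of members by over 1.5 times.

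Counts over all genes ranged, across these settings and left-out libraries, from 231 to 1330 (488) for Space and 141 to 1442 (489) for Ground pups over all libraries, 201 to 2369 (620) and 35 to 1097 (257) within replicates 1 to 3, 570 to 4978 (1592) and 895 to 6136 (2031) within 4 to 6, 221 to 1515 (426) and 132 to 1501 (366) for the interactions, and 1867 to 4376 (2929), 1729 to 5987 (2444) and 1065 to 3755 (1952) between the sets in Space, Ground and BDF1 libraries. For Space against Ground they ranged from 0 to 26 (0) over all libraries, 0 to 483 (1) and 0 to 149 (3) within the sets and 0 to 28 (0) for the interaction. With 3 libraries a group and set, smaller changes can be missed.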
